A study of Mus musculus with 4 samples.

Results

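Translation initiation factors are the proteins that load the initiator methionyl-tRNA onto the small ribosomal subunit, recruit that subunit to the capped end of an mRNA and select the start codon. Their genes were compared between 2 kinds of mouse CD8+ T cells on whole-transcript arrays, which hold probes along each transcript. The genes were taken by name: every symbol in the platform annotation that starts with Eif1 to Eif6 was kept, the kinase genes starting with Eif2ak were left out, and each gene was represented by its brightest probe set, by mean of the 4 arrays. This gave 45 genes among 19938 with a probe set of their own, and all 45 passed the filter on dim genes (mean of at least 2.59 on the log2 scale), as did 14953 genes in all. The name does not make each of them a classical initiation factor. *Eif4a3* encodes the helicase of the exon junction complex, *Eif5a* acts mainly in elongation and termination, *Eif6* keeps the ribosomal subunits apart, and the products of *Eif4ebp1*, *Eif4ebp2* and *Eif4enif1* bind the cap-binding protein eIF4E. *Eif1*, *Eif2s1*, *Eif3g* and *Eif4g1* were not analysed here, and 10 rows that carry a member's symbol beside others, among them those of *Eif3j1* with *Eif3j2*, were not used.

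The cells were wild-type C57BL/6 CD8+ T cells from spleen and lymph nodes, enriched by removing other cells with magnetic beads and, by the series design, naive at the start. Mice in the study were 8 to 12 weeks old. Cultures of CTLs (cytotoxic T lymphocytes) were kept for 2 days with IL-2 while IFN-γ was blocked by an antibody. Tc17 cultures, which give IL-17-producing cells, had the same additions plus IL-6 and TGF-β, so that the groups shared IL-2 and IFN-γ blockade. By the study's methods, Tc17 cells were primed through CD3 on the plate and CD28 in solution. Each group had 2 biological replicates with 1 array each. Nothing says whether these were separate animals, and p-values therefore cover the spread between these samples alone, which may be technical. The cells were polarised in vitro, and a bulk array cannot tell fewer cells of a type from less RNA per cell.

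In initiation, eIF2 carries the initiator tRNA with GTP to the small subunit, and eIF2B recharges eIF2 with GTP after each round. The scaffold eIF3 holds the small subunit together with the mRNA, while eIF4E binds the cap, eIF4G bridges it to eIF3 and the helicase eIF4A unwinds the leader. Activated T cells are known to raise protein synthesis as they grow and divide, and signalling through mTORC1 frees eIF4E from its binding proteins. Phosphorylation of eIF2 by stress kinases blocks eIF2B and lowers initiation.

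The arrays carried the labels' cell types. *Ifng*, *Gzmb* and *Eomes* were lower and *Il17a*, *Il17f* and *Rora* were higher in Tc17 cells (limma adjusted p at most 2.70e-05). The 5 markers of CD8+ T cells lay between 7.93 and 10.66 on every array, and 4 of them, all except *Cd8b1*, were higher in Tc17 cells, by 0.67 to 1.00. Of 10 markers of other cells (*Cd4* and markers of B, myeloid, NK and plasmacytoid dendritic cells), 8 were on the arrays, all between 2.03 and 3.28, near the filter level. Their summed value ran from 21.05 to 22.33 in CTLs and from 20.39 to 21.41 in Tc17 cells, and its part in the results was not tested. The correlation across tested genes, which are not independent replicates, was 0.993 within each group and 0.967 to 0.973 between groups.

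Of the 45 genes, 10 fell and 1 rose in Tc17 cells at a limma adjusted p under 0.05, and 34 did not pass. The share that fell was 22.2%, against 7.44% of all tested genes. The share that rose was 2.22%, against 8.22% of all tested genes. All except 2 members were brighter than the median gene, and among the 9969 genes above the median the fit called 11.9% lower and 12.9% higher, against 11 and 1 of the 43 members there (25.6% and 2.33%). The members that fell were *Eif2b3*, *Eif4enif1*, *Eif2s2*, *Eif1ax*, *Eif3c*, *Eif4ebp1*, *Eif4a3*, *Eif5b*, *Eif4a2* and *Eif4e*, and the one that rose was *Eif4e3*. The median log2 difference (Tc17 minus CTL) over the 45 genes was -0.21, beside 0.020 over all tested genes, and 34 of the 45 differences lay below 0 (75.6%, against 46.4%). Both Tc17 arrays lay below both CTL arrays for 26 members (57.8%, against 24.8% of all tested genes) and above them for 6 (13.3%, against 29.6%), and the groups overlapped for 13. At an unadjusted p under 0.05 there were 20 members (44.4%, against 27.1% of all tested genes), 19 of them lower (42.2%, against 12.8%) and 1 higher (2.22%, against 14.2%). Most differences were small, and *Eif2b3* and *Eif4enif1* were the only members below 50% of their CTL level.

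The shift was seen on each Tc17 array, though not equally. The median deviation of the 45 genes from the CTL mean was -0.13 on Tc17 replicate 1, with 32 genes below 0, and -0.25 on Tc17 replicate 2, with 35 below 0. The same median over all tested genes was 0.024 and 0.011. Without Tc17 replicate 2 the median difference of the members was -0.13 and 4 members fell. Leaving out CTL replicate 1 gave 6 members that fell, leaving out CTL replicate 2 gave 5 and leaving out Tc17 replicate 1 gave 7, while the share of all tested genes that fell was 3.93% to 6.53% in these fits.

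**Figure D1:**
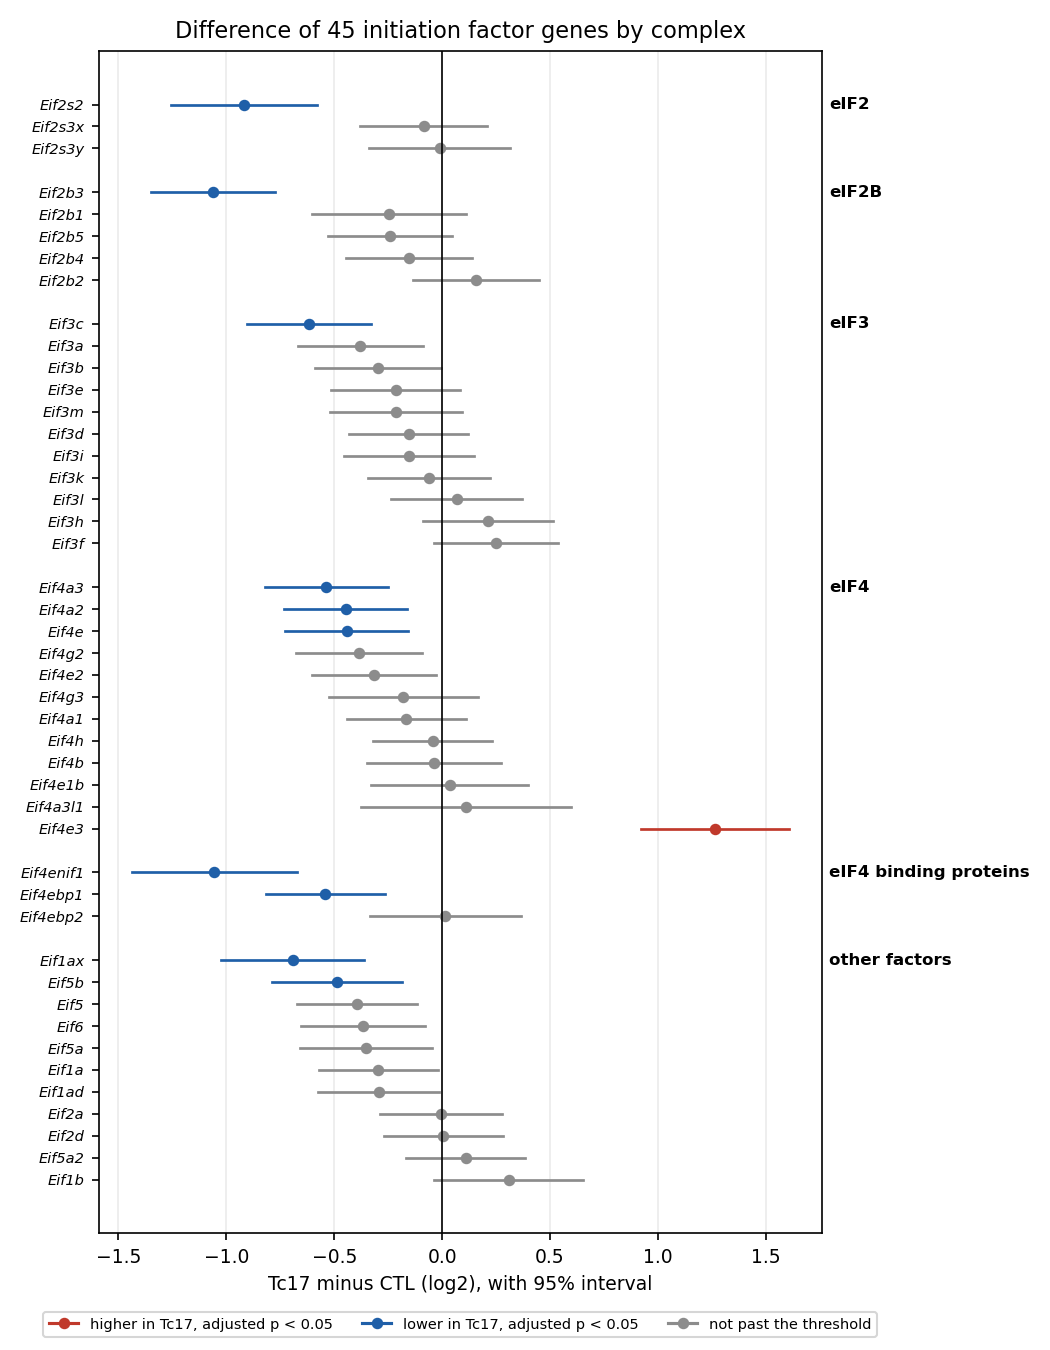
Differences of the 45 initiation factor genes (Tc17 minus CTL, log2, horizontal axis), grouped by complex. Points are estimates of the fit with 95% intervals (not adjusted for the number of genes), blue where a gene fell, red where it rose and grey where it did not pass. 10 genes fell, *Eif4e3* rose, and 34 of the 45 points lie left of 0.

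**Figure D2:**
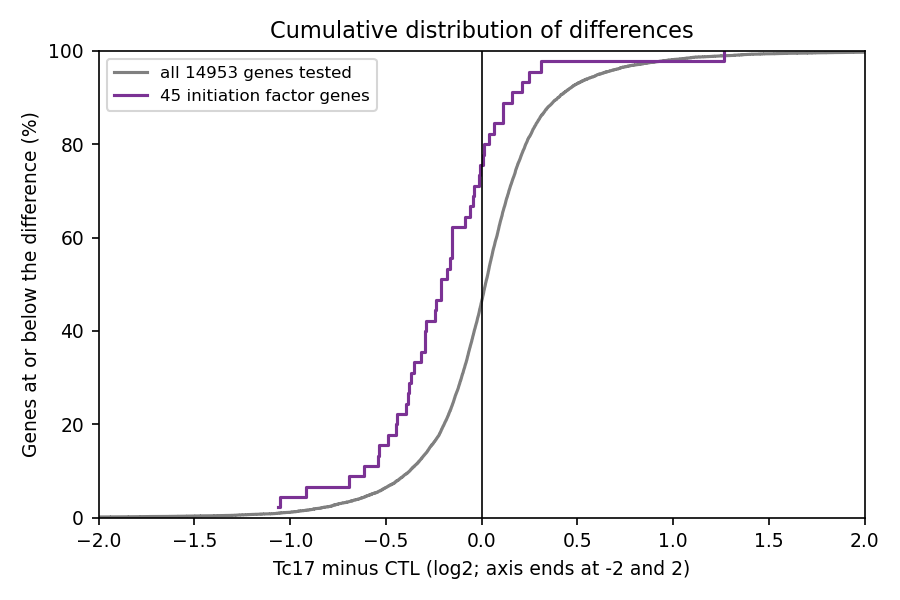
Cumulative share of genes (vertical axis, %) at or below a given Tc17 minus CTL log2 difference (horizontal axis, from -2 to 2) for the 45 initiation factor genes and all 14953 tested genes. The medians are -0.21 for the members and 0.020 for all tested genes, and the last step of the member curve is *Eif4e3* at 1.26.

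The promoters of some members are printed here since the eIF4 genes did not move alike and several of them hold the same short motif. RefSeq lists 47 transcription starts for 35 of the 45 members (build GRCm38.p6), and the window was 250 bases before to 50 bases after each start. *Eif4e3*, the member that rose, was not among these 35, so its promoter could not be set beside those of the other eIF4 genes. The motifs searched, on both strands and with no overlapping matches in the members, were the E-box CACGTG (bound by MYC and related factors), the ETS motif CGGAAG, the CCAAT box, the ATF4 motif TGATGCAA and the cyclic AMP response element TGACGTCA. The stretches printed are the 250 bases before the start, 5′ to 3′ on the strand of the gene, with motif matches in capitals.
Eif4e: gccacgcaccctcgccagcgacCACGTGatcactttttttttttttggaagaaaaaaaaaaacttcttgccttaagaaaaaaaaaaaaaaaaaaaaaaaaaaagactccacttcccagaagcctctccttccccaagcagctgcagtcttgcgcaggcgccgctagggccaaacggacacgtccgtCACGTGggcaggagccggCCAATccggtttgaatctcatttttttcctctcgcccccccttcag
Eif4a1: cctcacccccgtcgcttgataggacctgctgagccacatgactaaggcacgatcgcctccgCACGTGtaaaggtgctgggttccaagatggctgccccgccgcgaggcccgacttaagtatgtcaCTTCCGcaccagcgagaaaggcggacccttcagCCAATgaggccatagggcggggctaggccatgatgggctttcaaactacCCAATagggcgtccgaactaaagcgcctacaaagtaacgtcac
Eif4h: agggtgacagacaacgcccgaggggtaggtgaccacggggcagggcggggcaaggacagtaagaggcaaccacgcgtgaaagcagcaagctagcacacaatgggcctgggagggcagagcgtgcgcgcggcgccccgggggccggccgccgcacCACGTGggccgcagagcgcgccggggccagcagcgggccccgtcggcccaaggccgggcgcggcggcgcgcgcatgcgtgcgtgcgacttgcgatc
Eif4a2: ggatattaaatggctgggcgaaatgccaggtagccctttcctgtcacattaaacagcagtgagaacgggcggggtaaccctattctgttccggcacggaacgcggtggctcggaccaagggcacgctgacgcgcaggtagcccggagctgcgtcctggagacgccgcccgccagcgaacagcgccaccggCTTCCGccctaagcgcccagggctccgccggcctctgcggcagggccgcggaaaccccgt
Eif2s2: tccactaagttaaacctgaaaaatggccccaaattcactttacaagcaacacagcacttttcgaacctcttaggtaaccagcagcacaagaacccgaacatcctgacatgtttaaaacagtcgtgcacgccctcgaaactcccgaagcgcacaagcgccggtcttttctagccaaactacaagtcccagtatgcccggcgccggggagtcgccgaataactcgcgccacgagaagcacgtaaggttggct

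The stretch of *Eif4e*, the cap-binding protein gene, is chr3:138527018-138527267 on the plus strand (the second of 2 listed starts) and holds E-boxes at -228 and -64 and a CCAAT box at -46, where -1 is the last base before the start and a position is that of the motif's first base. The first listed start, with the bases before it at chr3:138525941-138526190, holds none of the motifs. *Eif4a1*, the main eIF4A helicase gene, is shown at chr11:69672424-69672673 on the minus strand, with an E-box at -189, an ETS motif at -125 and CCAAT boxes at -92 and -43. *Eif4h*, which encodes a stimulator of the helicase, is shown at chr5:134639410-134639659 on the minus strand, with an E-box at -96. *Eif4a2*, the paralog of *Eif4a1*, is shown at chr16:23107218-23107467 on the plus strand, with an ETS motif at -60 and no E-box. *Eif2s2* is shown at chr2:154892907-154893156 on the minus strand and holds none of the motifs. Of these 5 genes *Eif4e*, *Eif4a2* and *Eif2s2* fell, and *Eif4a1* and *Eif4h* did not pass.

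An E-box lay in 11 of the 47 member promoters (23.4%), against 7.15% of all 32851 promoters of the same length. It was found for 9 of the 35 genes, *Eif1b*, *Eif3a*, *Eif3f*, *Eif3k*, *Eif4a1*, *Eif4e*, *Eif4h*, *Eif5a* and *Eif5a2*. Of the 8 genes with a promoter that fell, 1 (*Eif4e*) held an E-box, and of the 27 that did not pass, 8 did. The ETS motif lay in 53.2% of the member promoters against 16.9% of all, and the CCAAT box in 27.7% against 37.4%. The ATF4 motif and the cyclic AMP response element were in none of them, against 0.895% and 1.79% of all. Member promoters had a median GC content of 62.7%, against 52.7% of all, and its part in these shares was not tested. A match describes the letters in the window and is not a binding site. *Myc* itself read 9.86 and 9.49 in CTLs and 8.70 and 8.89 in Tc17 cells and fell by 0.88 ± 0.15 (log2 difference ± SE, limma adjusted p = 0.00249), and its part in the member differences was not tested.

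Of the 3 tested genes of eIF2, the GTP-binding carrier of the initiator tRNA, the β subunit gene *Eif2s2* fell. Both γ subunit genes did not pass. The share that fell was 33.3%, against 7.44% of all tested genes. *Eif2s2* read 7.87 and 8.12 in CTLs and 7.25 and 6.91 in Tc17 cells. Both Tc17 arrays were below both CTL arrays, and the level fell by 0.92 ± 0.15, to 52.9% of the CTL level (limma adjusted p = 0.00206). A second, dimmer probe set of the gene read 6.69 and 6.47 in CTLs and 5.92 and 5.60 in Tc17 cells, a difference of -0.82. The γ subunit holds the GTP, and its gene has an X-linked and a Y-linked copy. *Eif2s3x*, the X-linked copy, read 9.35 and 9.19 in CTLs and 9.12 and 9.25 in Tc17 cells, and *Eif2s3y*, the Y-linked copy, read 6.75 and 6.80 in CTLs and 6.95 and 6.58 in Tc17 cells. For both the groups overlapped. The differences were -0.086 (95% interval -0.38 to 0.21) and -0.012 (-0.34 to 0.31), and both intervals left out the estimate for *Eif2s2*. The difference between these subunits was not tested.

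Among the 5 subunit genes of eIF2B, the guanine nucleotide exchange factor for eIF2, *Eif2b3* fell and the other 4 did not pass. Of all tested genes, 7.44% fell. *Eif2b3* encodes the γ subunit, which pairs with the catalytic ε subunit. It read 6.91 and 6.74 in CTLs and 5.78 and 5.75 in Tc17 cells. The gap between the groups was larger than the spread within them, and the level fell by 1.06 ± 0.13 (limma adjusted p = 2.68e-04), to 47.9% of the CTL level, the largest decrease among the 45 genes. The call held with each array left out, where the difference ran from -1.15 to -0.97.

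The partner of *Eif2b3*, the ε subunit gene *Eif2b5*, read 7.01 and 6.91 in CTLs and 6.64 and 6.79 in Tc17 cells. The difference of *Eif2b5* was -0.24 (95% interval -0.53 to 0.046, limma adjusted p = 0.274), with no overlap of the groups. *Eif2b1* (α) differed by -0.24 (-0.60 to 0.11) and *Eif2b4* (δ) by -0.15 (-0.45 to 0.14). *Eif2b2* (β) had the one difference above 0 in the complex, with 6.16 and 6.31 in CTLs and 6.47 and 6.32 in Tc17 cells, a difference of 0.16 (-0.13 to 0.45). The median of the complex was -0.24, and no interval of these 4 reached the estimate for *Eif2b3*. That estimate has an error of its own, and the difference between subunits was not tested.

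The scaffold eIF3 had 11 tested subunit genes, of which *Eif3c* fell and 10 did not pass, with a median of -0.16. The share that fell, 9.09%, was near the 7.44% of all tested genes. It leaves out the rows that name *Eif3j1* with *Eif3j2*, which were not used. Those read 8.31 and 8.31 in CTLs against 7.79 and 7.64 in Tc17 cells, and 8.58 and 8.61 against 8.15 and 8.02. In each of those rows both Tc17 arrays were below both CTL arrays. *Eif3c*, a core subunit that touches eIF1 and eIF5, read 9.45 and 9.56 in CTLs and 8.96 and 8.82 in Tc17 cells. It fell by 0.62 ± 0.13 (limma adjusted p = 0.00790), to 65.3% of the CTL level. With CTL replicate 2 left out *Eif3c* did not pass (-0.56, limma adjusted p = 0.0513), nor with Tc17 replicate 2 left out (-0.55, limma adjusted p = 0.0617). *Eif3a* and *Eif3b* came next in size. *Eif3a*, the gene of the largest subunit, read 9.36 and 9.28 in CTLs and 9.03 and 8.85 in Tc17 cells, and *Eif3b* read 9.55 and 9.33 in CTLs and 9.14 and 9.15 in Tc17 cells. Neither overlapped between the groups. Their differences of -0.38 (95% interval -0.67 to -0.089, limma adjusted p = 0.0799) and -0.30 (-0.59 to -0.0058, limma adjusted p = 0.176) did not pass.

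The remaining subunit genes of eIF3 lay on both sides of 0 and none passed. *Eif3e* (-0.21), *Eif3m* (-0.21), *Eif3d*, whose product can bind the cap (-0.16), *Eif3i* (-0.15) and *Eif3k* (-0.060) were below 0. *Eif3l* (0.067), *Eif3h* (0.21) and *Eif3f* (0.25) were above 0. *Eif3h* read 10.28 and 10.54 in CTLs and 10.65 and 10.60 in Tc17 cells, and *Eif3f* read 9.16 and 9.27 in CTLs and 9.54 and 9.39 in Tc17 cells. For these 2 genes both Tc17 arrays were above both CTL arrays. Their 95% intervals, -0.089 to 0.51 and -0.038 to 0.54, left out the estimate for *Eif3c*. No test set one subunit against another.

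The group of eIF4 cap and helicase genes had 12 tested members, of which *Eif4e3* rose, *Eif4e*, *Eif4a2* and *Eif4a3* fell and 8 did not pass, with a median of -0.17. For comparison, 7.44% of all tested genes fell and 8.22% rose. The calls of the cap-binding genes *Eif4e3* and *Eif4e* went in opposite directions, that of *Eif4e* on the brightest of its 3 probe sets alone. *Eif4e3*, which encodes an atypical cap-binding protein of the eIF4E family, read 5.55 and 5.53 in CTLs and 6.59 and 7.02 in Tc17 cells. Both Tc17 arrays lay above both CTL arrays by over 1 on the log2 scale, and the level rose by 1.26 ± 0.15 (limma adjusted p = 2.67e-04), or 2.40-fold. This was the largest change of the 45 genes in either direction, and it passed in every alternative fit, with differences from 1.05 to 1.48 when an array was left out. *Eif4e*, the main cap-binding protein gene, read 8.52 and 8.57 in CTLs and 8.18 and 8.02 in Tc17 cells, and fell by 0.44 ± 0.13 (limma adjusted p = 0.0406), to 73.7% of the CTL level.

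The fall of *Eif4e* rested on its brightest probe set. The second probe set of *Eif4e* read 4.10 and 4.46 in CTLs, with Tc17 replicate 2 at 4.42 between them and Tc17 replicate 1 below both (a difference of -0.067), and the remaining one read 3.79 and 3.88 in CTLs and 3.85 and 3.74 in Tc17 cells (-0.041). On both dim probe sets the groups overlapped. With the mean of the 3 probe sets the difference of *Eif4e* was -0.18 (limma adjusted p = 0.421). With the brightest it did not pass when any array was left out (-0.52 to -0.36, limma adjusted p from 0.0584 to 0.229), with cyclic loess (-0.38, limma adjusted p = 0.0659) or with the replicate number as a block (limma adjusted p = 0.0523). *Eif4e2*, which encodes a cap-binding protein that represses translation, read 6.59 and 6.42 in CTLs and 6.22 and 6.17 in Tc17 cells. Its groups did not overlap, and its difference of -0.32 (95% interval -0.60 to -0.030, limma adjusted p = 0.141) did not pass. The oocyte gene *Eif4e1b* was dim, between 2.81 and 3.27 on the 4 arrays, with a difference of 0.036.

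**Figure D3:**
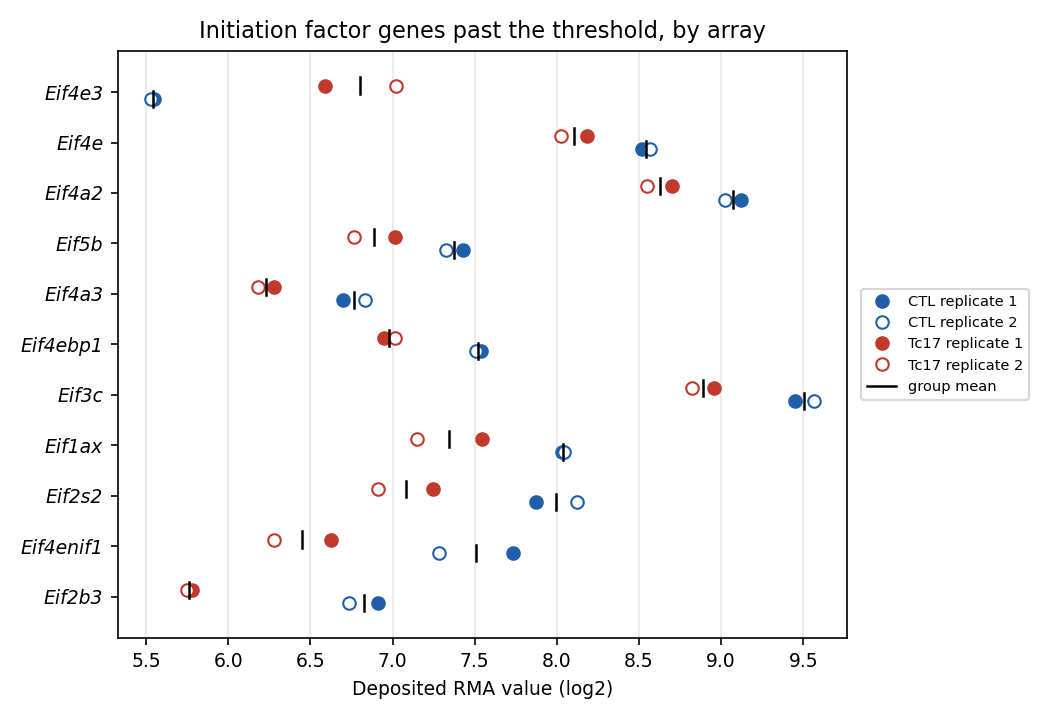
Deposited RMA values (log2, horizontal axis) of the 11 initiation factor genes past the threshold. Each circle is an array (CTL blue, Tc17 red, replicate 1 filled, replicate 2 open), with the mean of each group drawn as a bar. *Eif4e3* goes from a mean of 5.54 in CTLs to 6.80 in Tc17 cells, and the other 10 genes have both Tc17 arrays below both CTL arrays.

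Of the helicase genes, *Eif4a2* read 9.12 and 9.02 in CTLs and 8.70 and 8.55 in Tc17 cells, and fell by 0.45 ± 0.13 (limma adjusted p = 0.0391). *Eif4a1*, which encodes the closely related main helicase, read 11.11 and 11.07 in CTLs and 10.93 and 10.91 in Tc17 cells. The groups of *Eif4a1* did not overlap either, but the difference of -0.17 (95% interval -0.44 to 0.11) did not pass, and its other 2 probe sets gave -0.24 and -0.23. *Eif4a3* read 6.70 and 6.83 in CTLs and 6.28 and 6.18 in Tc17 cells, and fell by 0.54 ± 0.13 (limma adjusted p = 0.0159), to 68.9% of the CTL level. The call of *Eif4a2* was lost when any array was left out (-0.52 to -0.37) and with cyclic loess (-0.39, limma adjusted p = 0.0617). *Eif4a3* did not pass when CTL replicate 2 (-0.47) or Tc17 replicate 2 (-0.49) was left out. Its near copy *Eif4a3l1* was dim, from 2.19 to 3.02, with a difference of 0.11. Brighter rows that name both genes together were not used. They read 8.43 and 8.42 in CTLs against 8.18 and 8.04 in Tc17 cells, and 8.24 and 8.27 against 7.94 and 7.84.

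The genes for the scaffolds and for the helicase's helpers did not pass. *Eif4g2*, which encodes the scaffold DAP5 that lacks the eIF4E-binding part, read 9.89 and 9.67 in CTLs and 9.41 and 9.38 in Tc17 cells. Its difference of -0.39 (95% interval -0.68 to -0.091, limma adjusted p = 0.0796) came with no overlap of the groups. *Eif4g3*, another scaffold gene, read 6.68 and 6.25 in CTLs and 6.34 and 6.23 in Tc17 cells and differed by -0.18 (-0.53 to 0.16), with CTL replicate 1 above the other 3 arrays. *Eif4b* (-0.039, -0.35 to 0.27) and *Eif4h* (-0.045, -0.32 to 0.23), whose products stimulate the helicase, lay close to 0.

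Of the 3 genes for proteins that bind eIF4E, 2 fell (66.7%, against 7.44% of all tested genes), and the median was -0.54. *Eif4enif1* encodes 4E-T, which carries eIF4E into the nucleus and holds it in P-bodies. It read 7.73 and 7.28 in CTLs and 6.63 and 6.28 in Tc17 cells, and fell by 1.06 ± 0.17 (limma adjusted p = 0.00186), to 48.1% of the CTL level. A second, dim probe set of *Eif4enif1* read 3.89 and 3.98 in CTLs and 3.55 and 3.45 in Tc17 cells, a difference of -0.44, and the mean of both gave -0.75. *Eif4ebp1* encodes 4E-BP1, the inhibitor of eIF4E that mTORC1 inactivates. Its replicates lay close together, with 7.54 and 7.51 in CTLs and 6.95 and 7.02 in Tc17 cells. It fell by 0.54 ± 0.13 (limma adjusted p = 0.0131), to 68.7% of the CTL level.

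When CTL replicate 1 was left out *Eif4ebp1* did not pass (-0.53, limma adjusted p = 0.0646), nor did it with Tc17 replicate 1 left out (-0.51, limma adjusted p = 0.0643), while its size changed little. *Eif4ebp2*, the paralog, read 6.98 and 6.52 in CTLs and 6.76 and 6.78 in Tc17 cells. The difference of *Eif4ebp2* was 0.014, with a 95% interval of -0.34 to 0.36 that left out the estimate for *Eif4ebp1*. The difference between these paralogs was not tested. *Eif4ebp3* shares its row with another symbol and was not analysed here.

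Among the 11 other factors, *Eif1ax* and *Eif5b* fell (18.2%, against 7.44% of all tested genes), 9 did not pass, and the median was -0.30. *Eif1ax* encodes eIF1A, which helps the small subunit to scan for the start codon. It read 8.03 and 8.04 in CTLs and 7.54 and 7.15 in Tc17 cells, and fell by 0.69 ± 0.15 (limma adjusted p = 0.00908), to 61.9% of the CTL level. Without Tc17 replicate 2 the difference of *Eif1ax* was -0.50 and did not pass (limma adjusted p = 0.0851). Its paralog *Eif1a* read 6.33 and 6.27 in CTLs and 6.01 and 5.99 in Tc17 cells, with a difference of -0.30 (95% interval -0.57 to -0.021, limma adjusted p = 0.152). Rows that name *Eif1a* beside several other symbols were not used. In none of those rows were both Tc17 arrays below both CTL arrays. Some had both Tc17 arrays above both CTL arrays, and in the others the groups overlapped. The former read 6.86 and 6.75 in CTLs against 6.90 and 6.89 in Tc17 cells, and 6.44 and 6.42 against 6.48 and 6.48.

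*Eif5b*, the GTPase gene for joining of the large subunit, read 7.43 and 7.32 in CTLs and 7.02 and 6.76 in Tc17 cells, and fell by 0.49 ± 0.14 (limma adjusted p = 0.0344). The call of *Eif5b* ended when CTL replicate 1 (-0.43), CTL replicate 2 (-0.54) or Tc17 replicate 2 (-0.36) was left out. *Eif5*, which encodes the activator of eIF2's GTPase, came closest to the threshold among the genes that missed it. It read 8.35 and 8.25 in CTLs and 7.90 and 7.90 in Tc17 cells, a difference of -0.39 ± 0.13 (limma adjusted p = 0.0589), and passed with the filter at the median (limma adjusted p = 0.0466) and with an intensity trend.

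*Eif6* read 9.10 and 8.97 in CTLs and 8.61 and 8.73 in Tc17 cells, and its difference of -0.37 (95% interval -0.65 to -0.081, limma adjusted p = 0.0864) did not pass. *Eif5a* carries the amino acid hypusine, which is made from spermidine. It read 10.49 and 10.74 in CTLs and 10.19 and 10.33 in Tc17 cells, with a difference of -0.35 (-0.66 to -0.047, limma adjusted p = 0.122), and a second probe set gave -0.41. Its paralog *Eif5a2* was at 4.28 to 4.43 on the 4 arrays, with a difference of 0.11 (-0.17 to 0.39). *Eif1ad* differed by -0.29 (-0.57 to -0.013).

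*Eif1b*, the paralog of *Eif1*, had the highest difference of the genes that did not pass, 0.31 (-0.037 to 0.65), and read 6.67 and 7.12 in CTLs and 7.22 and 7.18 in Tc17 cells. Both its Tc17 arrays lay above both CTL arrays. *Eif2a* (-0.0065, -0.29 to 0.28) and *Eif2d* (0.0062, -0.27 to 0.28) lay nearest to 0. Both encode factors that can bring a tRNA to the small subunit without eIF2.

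For 9 of the 34 genes that did not pass, the 95% interval lay wholly below 0 (26.5%, against 6.39% of all genes that did not pass), and for none of the 34 wholly above it (against 7.14%). These were *Eif1a*, *Eif1ad*, *Eif3a*, *Eif3b*, *Eif4e2*, *Eif4g2*, *Eif5*, *Eif5a* and *Eif6*. The intervals are not adjusted for the number of genes tested. The SE of a member's difference ran from 0.12 to 0.22. An exact permutation test of a single gene with 2 arrays against 2 cannot give a p below 0.333.

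**Figure D4:**
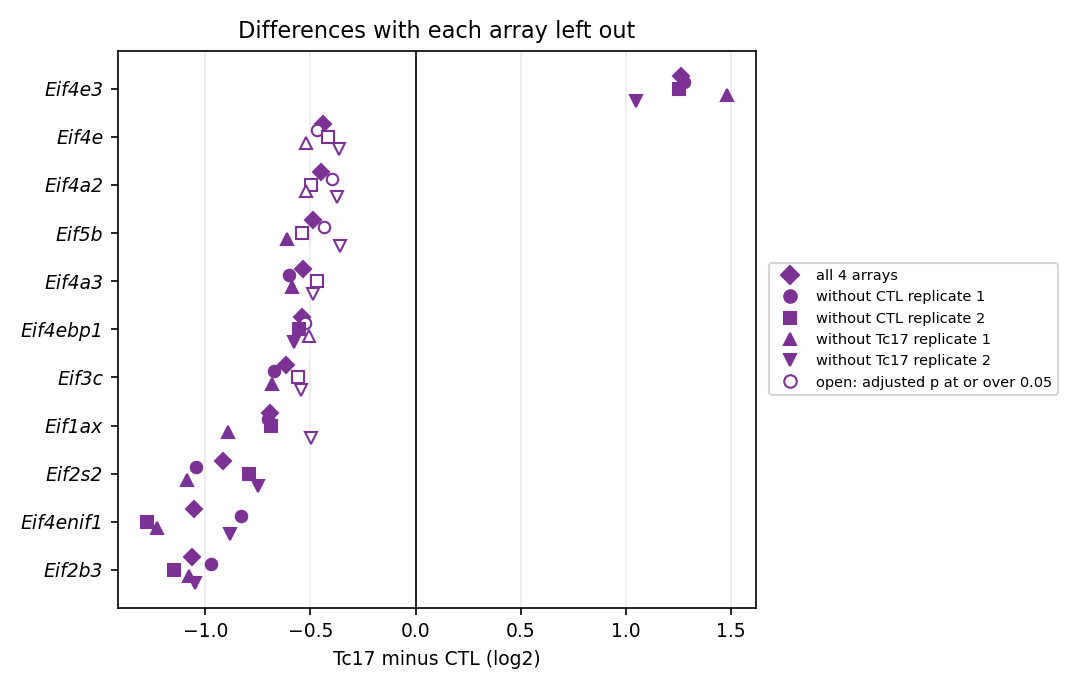
Tc17 minus CTL log2 difference (horizontal axis) of the 11 genes past the threshold with all 4 arrays and with each array left out in turn. Filled symbols have a limma adjusted p under 0.05 and open ones do not. *Eif4e3*, *Eif2s2*, *Eif4enif1* and *Eif2b3* are filled throughout, and no gene crosses 0.

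Of 26 regulators of initiation on a list of other pathway genes, 23 were tested, 3 fell and 3 rose, with a median of -0.046. Among all tested genes, 7.44% fell and 8.22% rose. The eIF2 kinases, which halt initiation under stress by phosphorylating eIF2, did not move alike. *Eif2ak2*, the gene of the double-stranded RNA sensor PKR, which interferon induces, read 6.14 and 5.84 in CTLs and 4.36 and 4.36 in Tc17 cells, and fell by 1.63 ± 0.14 (limma adjusted p = 2.30e-05). *Eif2ak3*, the gene of the endoplasmic reticulum stress kinase PERK, read 5.47 and 5.18 in CTLs and 5.73 and 5.91 in Tc17 cells, and rose by 0.50 ± 0.14 (limma adjusted p = 0.0387). That call ended when CTL replicate 2 (0.35), Tc17 replicate 1 (0.59) or Tc17 replicate 2 (0.40) was left out, and with the replicate number as a block (limma adjusted p = 0.0520). *Eif2ak1* (0.30, 95% interval 0.022 to 0.59), whose kinase is inhibited by heme, and *Eif2ak4* (-0.20, -0.51 to 0.10), whose kinase senses uncharged tRNA, did not pass.

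*Pdcd4*, which encodes an inhibitor of the eIF4A helicase, read 6.83 and 6.96 in CTLs and 7.87 and 7.51 in Tc17 cells, and rose by 0.79 ± 0.15 (limma adjusted p = 0.00405). *Larp1*, whose product binds the cap of mRNAs for ribosomal proteins, read 8.83 and 8.53 in CTLs and 7.78 and 7.60 in Tc17 cells, and fell by 0.99 ± 0.15 (limma adjusted p = 9.10e-04). Named after their values were seen, *Mknk2*, the gene of a kinase of eIF4E, rose by 0.49 ± 0.13, and *Abce1*, the gene of a ribosome recycling factor, fell by 0.44 ± 0.13. The call of *Mknk2* ended without CTL replicate 1 (0.40), Tc17 replicate 1 (0.56) or Tc17 replicate 2 (0.43), and that of *Abce1* when any array was left out (-0.47 to -0.41) and with cyclic loess (-0.38). *Mtor* (-0.043, -0.34 to 0.25) and *Rptor* (-0.046, -0.32 to 0.23), which encode mTORC1 subunits, did not pass.

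Of 12 elongation and release factor genes, 11 were tested, 3 fell and none rose, with a median of -0.26. The share that fell was 27.3%, against 7.44% of all tested genes, and 8.22% of all tested genes rose. *Eef1e1*, which encodes a component of the multi-tRNA synthetase complex, read 8.80 and 8.84 in CTLs and 7.70 and 7.42 in Tc17 cells, and fell by 1.26 ± 0.14 (limma adjusted p = 1.31e-04). *Etf1*, the gene of the release factor eRF1, read 8.41 and 8.45 in CTLs and 7.88 and 7.64 in Tc17 cells, and fell by 0.67 ± 0.13 (limma adjusted p = 0.00611), a call that ended without Tc17 replicate 2 (-0.55). *Eef2k*, the gene of a kinase that inhibits elongation, was named after its value was seen and fell by 0.46 ± 0.14. It did not pass when any array was left out (-0.57 to -0.35), with the mean of its probe sets (-0.22), with no filter, with an intensity trend or with the replicate block (limma adjusted p = 0.0579). Of the genes of elongation factors themselves, *Eef1a1* (0.14, -0.15 to 0.44) and *Eef2* (0.17, -0.11 to 0.45) were above 0 and did not pass. *Eef1b2* (-0.11, -0.41 to 0.18) and *Eef1d* (-0.26, -0.56 to 0.040) were below 0 and did not pass either.

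**Figure D5:**
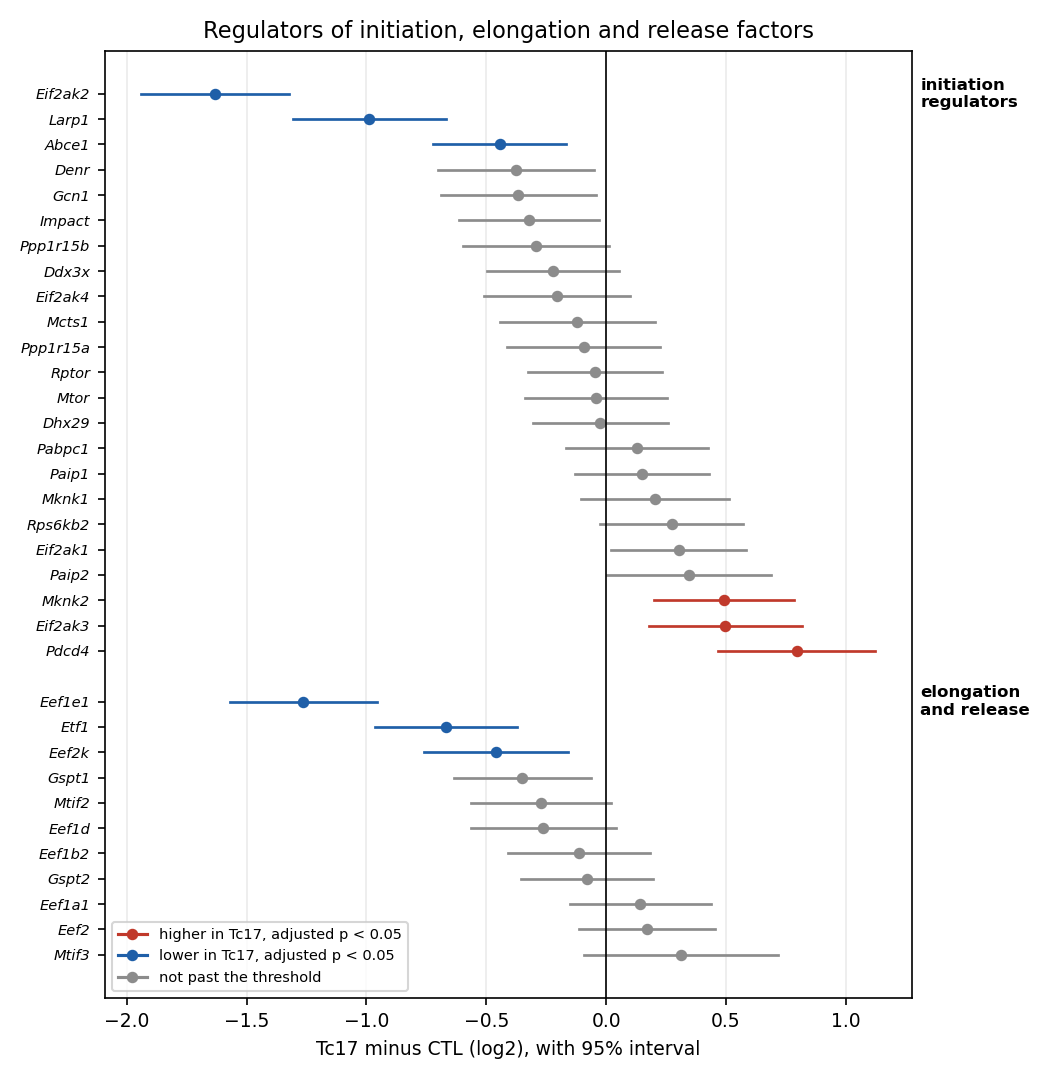
Tc17 minus CTL log2 difference (horizontal axis, with 95% intervals not adjusted for the number of genes) of 23 regulators of initiation and 11 elongation and release factor genes. Blue genes fell, red genes rose and grey genes did not pass. *Eif2ak2* at -1.63 and *Eef1e1* at -1.26 are farthest to the left, and *Pdcd4* at 0.79 is farthest to the right.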

How the data were processed

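Total RNA of the 4 cultures was amplified and hybridised to 1 array each. The authors deposited RMA values (background correction, normalisation across arrays, summary per probe set), used here as log2 values from their range of 1.18 to 13.70. For the log base, version and settings: not given in the sources used here. RMA removes any shift common to all transcripts and compresses differences of dim genes, and the table has no detection calls. An array annotation gave 1 symbol to 21789 of 35557 rows, several to 1621 and none to 12147. Gene identifiers of 21698 rows matched RefSeq (GRCm38.p6).

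The brightest probe set stood for each gene, and genes with a mean under the 25th percentile (2.59) were left out. Tc17 was compared with CTL over 14953 genes in limma 3.58.1 under R 4.3.3 (lmFit, eBayes), unpaired and two-sided, with Benjamini-Hochberg adjustment over all of them. The fit was tested on simulated data. Members and lists were chosen with earlier results of these data known. Named were the members past the threshold, the extremes of each complex, paralogs, and, of the other lists, the 2 largest changes each way past the threshold. Other genes of those lists were chosen after their values were seen. Near-identical copies and pseudogenes may share signal with *Eif4a1*, *Eif4a3*, *Eif4e*, *Eif5a* and *Eif1a*. For arrays, their number limits the precision. Alternatives were other filters, robust moderation with an intensity trend, median centring, cyclic loess, the mean of probe sets, every row as a feature, the replicate number as a block, and each array left out. Tables and plots used Python 3.11.15, pandas 2.3.3 and matplotlib 3.10.9.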

Additional observations from a re-analysis of the deposited data

How the results depend on the processing

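Over 12 alternatives, none of the 11 members past the threshold changed sign. *Eif2b3* and *Eif4e3* passed in all of them, *Eif2s2* and *Eif4enif1* in all except the test of every row, and these 4 passed with each array left out. In the test of every row, which adjusts over 35557 rows, 1 member fell (0.745% of all rows did), and the regulators gave 0 higher and 1 lower, the elongation and release factors 1 lower. With each array left out the number of members that fell was 4 to 7, that of regulators that rose 1 to 2 and fell 2 to 3, and that of elongation and release factors that fell 1 to 2 and rose 0 to 1. A group left with 1 array was assumed to vary like the other. With an intensity trend and robust moderation 15 members fell (7.88% of all tested genes did), with cyclic loess 8 (7.30%), with the mean of probe sets 9 (7.45%) and with the filter at the median 11 (11.9%). With the replicate number as a block 9 members fell (7.42% of all tested genes did) and *Eif4e* did not pass (limma adjusted p = 0.0523), nor did *Eif2ak3* and *Eef2k*. Deviations of arrays with the same number correlated at 0.020, so no shared effect of the numbers was seen. This cannot tell whether cultures with the same number came from a shared animal or preparation.

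With each array left out the median of all members ran from -0.25 to -0.13, that of eIF2 from -0.20 to -0.034, eIF2B from -0.23 to -0.080, eIF3 from -0.25 to -0.073, eIF4 from -0.29 to -0.14 and the other factors from -0.33 to -0.27. The eIF2 median was -0.024 and the eIF4 median -0.13 with cyclic loess, and the eIF4 median was -0.25 with the filter at the median, which drops *Eif4a3l1* and *Eif4e1b*. Of the 34 members that did not pass, 11 changed sign in some fit. With cyclic loess *Eif2a* was 0.050, *Eif2s3y* 0.026, *Eif4b* 0.022 and *Eif4h* 0.017, and with median centring *Eif2d* was -0.0018. With each array left out *Eif2a* ran from -0.075 to 0.062, *Eif2d* from -0.016 to 0.029, *Eif2s3y* from -0.20 to 0.17, *Eif3k* from -0.13 to 0.014, *Eif3l* from -0.067 to 0.20, *Eif4a3l1* from -0.31 to 0.53, *Eif4b* from -0.16 to 0.082, *Eif4e1b* from -0.20 to 0.27, *Eif4ebp2* from -0.22 to 0.25 and *Eif4g3* from -0.40 to 0.036. The cause was not tested.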
